A study of Mus musculus with 10 samples.

Results

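The clustered protocadherins are 3 tandem gene arrays, Pcdhα, Pcdhβ and Pcdhγ, that lie next to each other on mouse chromosome 18. All GENCODE genes of that chromosome whose symbol begins with Pcdha, Pcdhb or Pcdhg were taken, which gave 58 members out of 55413 annotated genes, 14 in Pcdhα, 22 in Pcdhβ and 22 in Pcdhγ. Of these, 57 were protein-coding, and Pcdhgb8 was annotated as a polymorphic pseudogene. Every member was transcribed from the plus strand. In the mm10 build the Pcdhα cluster ran from 36930184 to 37187661, the Pcdhβ cluster from 37264938 to 37524479 and the Pcdhγ cluster from 37661793 to 37841873. With 50 kb on each side, the span examined was chr18:36880184-37891873, or 1.01 Mb. Peak summits from 8 ChIP-seq libraries were placed within 1 kb of each member start and across the span.

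The libraries came from AB17 cells, C57BL/6 mouse hepatocytes that carry a floxed Arid1a (Arid1a fl/fl) and were immortalized with the SV40 large T antigen and an H-Ras oncogene, which both genotypes share. The wildtype (WT) cells had received the adenovirus Ad-GFP, and the knockout (KO, Arid1a-/-) cells had received Ad-Cre, which deletes Arid1a. Both genotypes were profiled for H3K9me3 and H3K27me3, and WT cells also for Arid1a, Brg1, Ctcf and Rad21, with 1 library per group, so that no condition has a replicate and no p-value is given. The AB17 line is a cell line under oncogene expression and not liver tissue. The study reported PCR and Western blotting of the knockout in AB17 cells. The deletion itself could not be checked from the lists, because they hold no expression values and no Arid1a library of KO cells was used here.

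As background, each Pcdhα and Pcdhγ gene contributes a large variable exon with its own promoter, which is spliced to constant exons shared by the whole cluster, whereas Pcdhβ genes are made of a single exon. The proteins are cadherin-like adhesion molecules of the neuronal surface, and individual neurons choose a small set of them by stochastic promoter use, a choice that gives each cell an identity for self-avoidance. Ctcf, a DNA-binding zinc finger protein, and cohesin, the ring complex to which Rad21 belongs, connect the chosen promoters to distant enhancers. In non-neuronal cells most of these promoters are silent, with repressive histone methylation and DNA methylation described at them. The C-type members, Pcdhac1, Pcdhac2, Pcdhgc3, Pcdhgc4 and Pcdhgc5, are regulated apart from the stochastic members.

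Each library was represented by a list of 1-bp summits with a strength, the −log10 q-value of the peak in that library. Strengths were used to rank or filter summits within a list and are not levels that can be set against another list. The lists held between 70408 (Arid1a) and 143835 (WT H3K9me3) summits over the genome, most of them weak. Their medians lay between 2.47 and 4.02. Read depth is unknown from the lists. In a population of cells, a weaker mark in every cell and a mark in fewer cells cannot be told apart. The starts of members were far enough apart, with a smallest distance of 3779 bp, that no summit fell within 1 kb of more than 1 start. Members are copies of each other. A median of 0.666% of the 50-base words in a start window recurred elsewhere in the span, and 9 members exceeded 10%, of which 5 were Pcdhα genes. They were Pcdha6, Pcdha7 (17.9%, the highest), Pcdha8, Pcdha10, Pcdha11, Pcdhb9, Pcdhb11, Pcdhb12 and Pcdhgb4. The summits at those members are less certain wherever they are named below.

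**Figure D1:**
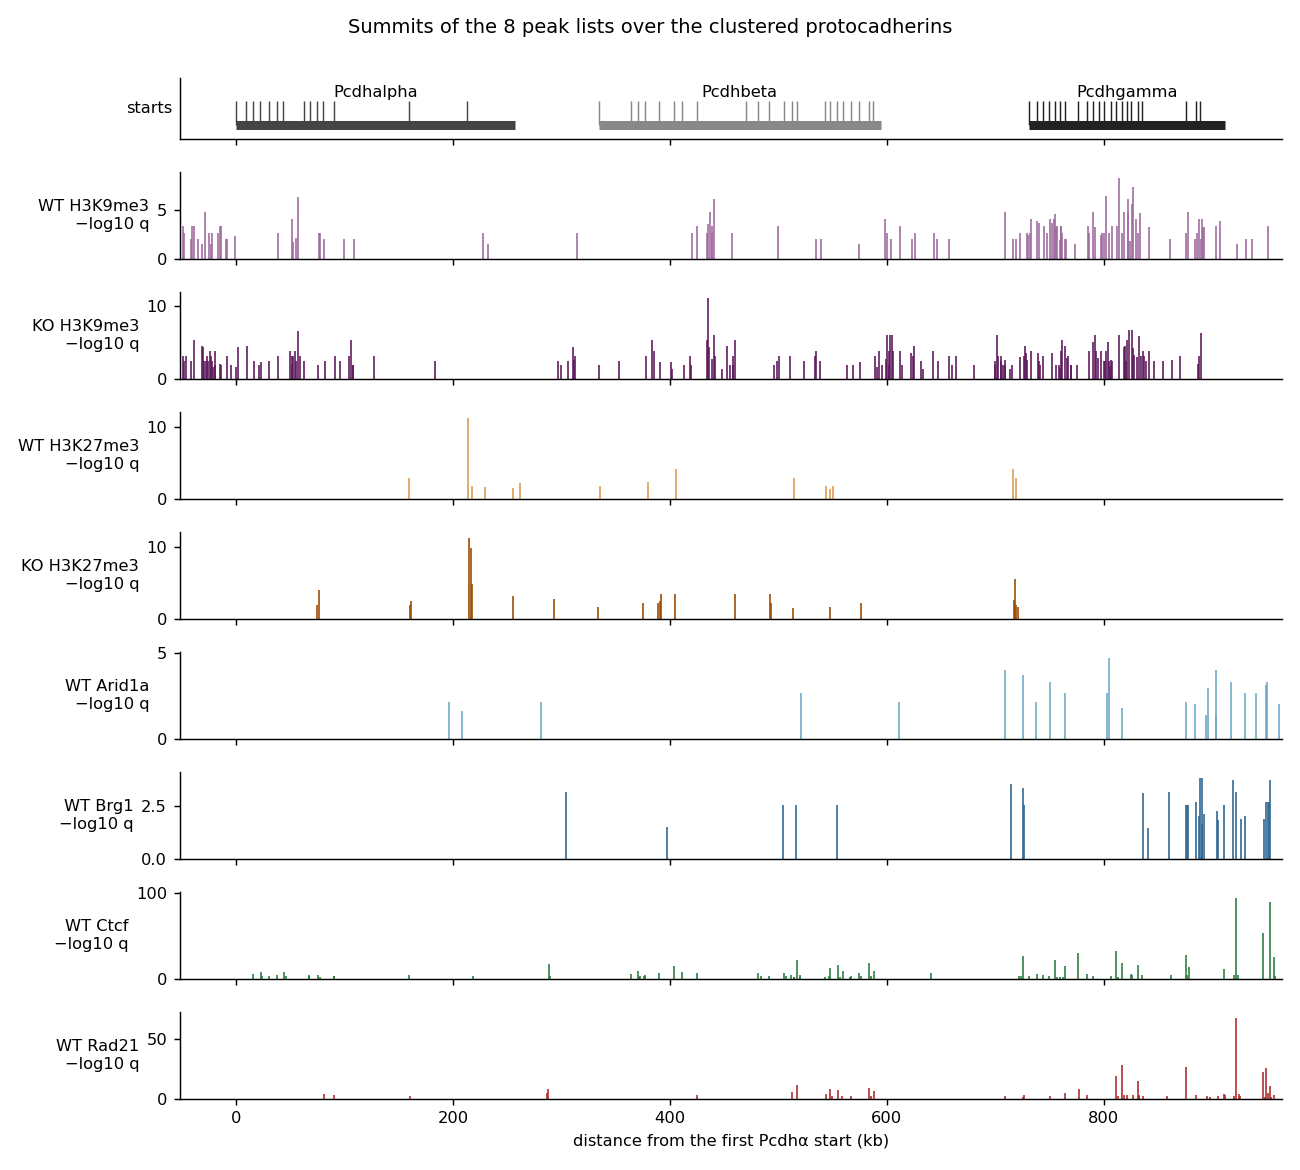
Summits of the 8 lists over the clustered protocadherins, with distance from the first Pcdhα start in kb on the horizontal axis and −log10 q on each vertical axis, which differs between lists. The top row shows the 58 member starts as ticks over each cluster. Ctcf and Rad21 summits become stronger towards Pcdhγ and peak beyond it at 94.2 and 66.8, whereas H3K9me3 is dense over Pcdhγ and over the 50 kb upstream of Pcdhα.

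Ctcf was the factor found at most member starts. A Ctcf summit lay within 1 kb of 46 of the 58 starts, or 79.3% (95% exact binomial interval 66.6 to 88.8, counting error only), against 32.8% of all 21938 protein-coding genes. The share was 9 of 14 in Pcdhα, 20 of 22 in Pcdhβ and 17 of 22 in Pcdhγ. At a strength of at least 5 the members with Ctcf were 28, with 3 in Pcdhα, 15 in Pcdhβ and 10 in Pcdhγ, against 17.4% of protein-coding genes. Across the span there were 87 Ctcf summits, or 86.0 per Mb against 33.5 per Mb over the genome. Among 2534 non-overlapping windows of the same length, 247 held more, and the window median was 25. Start windows made up 11.5% of the span and held 60.9% of its Ctcf summits.

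The Ctcf summits sat close to the annotated start. At the 46 members the strongest summit lay at a median of -34.5 bp, where negative values are upstream, and 38 were within 200 bp. In 26 of the 46 (56.5%) it was within 100 bp, against 16.9% of the 7191 protein-coding genes that had a Ctcf summit. The positions ranged from -253 bp at Pcdhb13 to 665 bp at Pcdha10. Pcdhβ and Pcdhγ had 65.0% and 64.7% within 100 bp, and Pcdhα had 2 of 9.

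Strength differed widely between neighbouring promoters. In Pcdhγ, Pcdhgb6 (32.3), Pcdhga6 (29.98) and the C-type Pcdhgc3 (27.8) had the strongest Ctcf summits, while Pcdhgb2 (2.35) and Pcdhgb4 (2.72) had the weakest of those listed in this cluster. In Pcdhβ the strongest were Pcdhb14 (22.0), Pcdhb21 (18.7) and Pcdhb17 (16.4). In Pcdhα none exceeded 8.22, the value of Pcdha7, followed by Pcdha4 (7.91) and Pcdha3 (5.91). In places strong and weak promoters were neighbours, as where Pcdhga4 (21.8) stood between Pcdhgb1 (3.35) and Pcdhgb2. Elsewhere strong ones were adjacent, as Pcdhga5 (15.4) and Pcdhga6, or Pcdhgb6 and Pcdhga10 (18.8). No Ctcf summit was listed at 12 starts, those of Pcdha1, Pcdha2, Pcdha8, Pcdha11 and the C-type Pcdhac2 in Pcdhα, Pcdhb1 and Pcdhb9 in Pcdhβ, and Pcdhga8, Pcdhgb5, Pcdhgb7 and the C-type Pcdhgc4 and Pcdhgc5 in Pcdhγ. Of the C-type members only Pcdhac1 (4.73) and Pcdhgc3 had Ctcf.

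**Figure D2:**
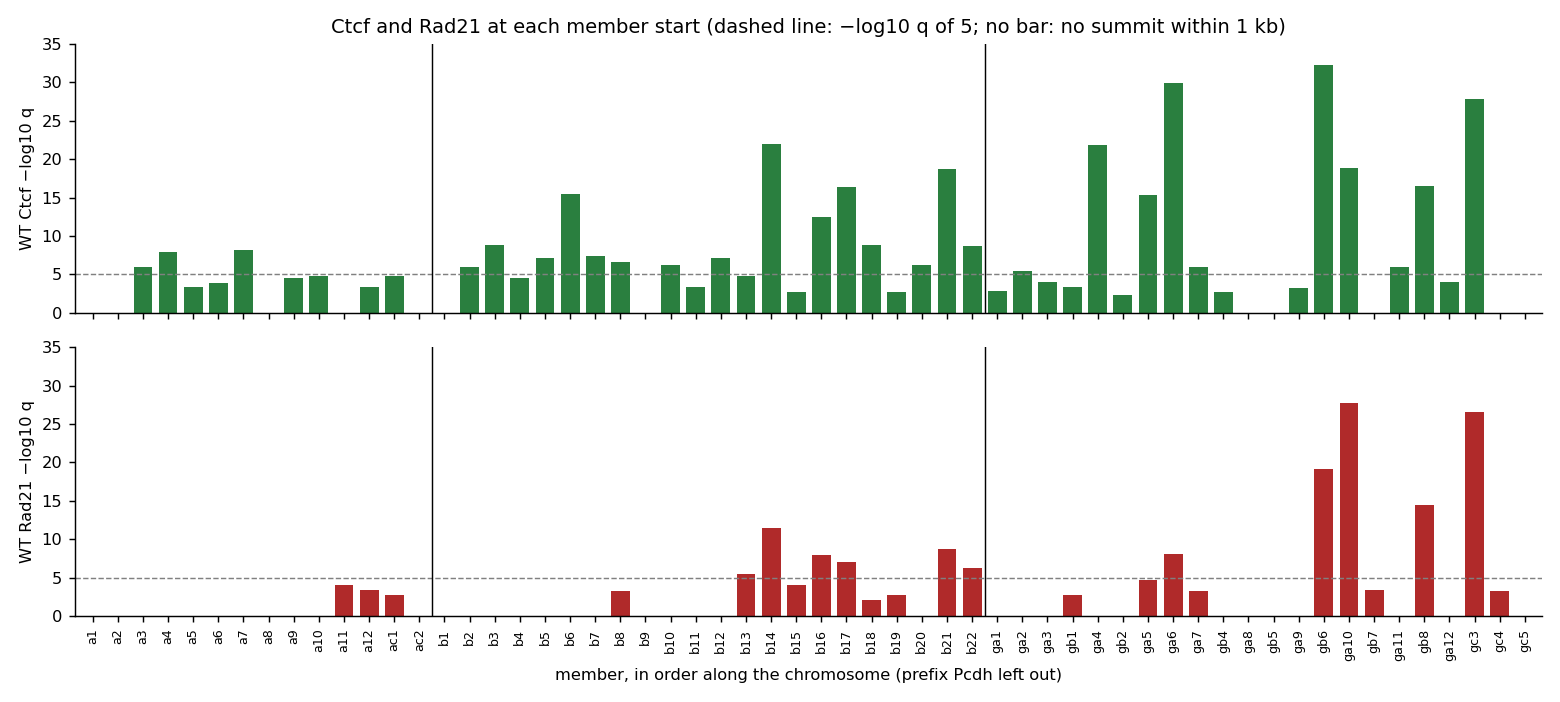
Strength (−log10 q) of the strongest Ctcf (top) and Rad21 (bottom) summit within 1 kb of each member start, in WT cells with 1 library each, with members in order along the chromosome. Bars start at 0, an absent bar means that no summit was listed, and the dashed line marks 5. Ctcf is present over nearly all of Pcdhβ, but Rad21 is found mostly in its last members. In Pcdhγ Rad21 stands at 4 of the first 11 and 6 of the last 11 members, with the tallest bars among the latter.

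Rad21 was present at fewer starts than Ctcf. It had a summit at 23 of the 58 starts, 3 in Pcdhα, 10 in Pcdhβ and 10 in Pcdhγ, and this 39.7% (27.05 to 53.4) was near the 43.2% of all protein-coding genes. At a strength of at least 5 the count was 11, against 16.4% of protein-coding genes, and 10 members had both factors at that strength, against 10.5%. Of the members, 20 had both Ctcf and Rad21 (25.7% of protein-coding genes), 26 had Ctcf without Rad21 (7.11%), and 3 had Rad21 without Ctcf (17.5%), which were Pcdha11, Pcdhgb7 and Pcdhgc4. At the 20 members with both, the strongest summits of each were a median of 90 bp apart, and 16 pairs were within 200 bp.

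Rad21 was listed more often at members with strong Ctcf than at the other members. Among the 12 members with a Ctcf strength of at least 10, 10 had Rad21. The other two were Pcdhb6 (Ctcf 15.5) and Pcdhga4 (21.8). Rad21 was listed at 4 of the 16 members with a Ctcf strength from 5 to 10, at 6 of the 18 below 5 and at 3 of the 12 without Ctcf. Over all protein-coding genes, 5632 of the 7191 starts with Ctcf of any strength also had Rad21. The 10 of 12 was near that share, and the members with Ctcf below 10 were under it. The share over all genes was not split by Ctcf strength. The strongest Rad21 summits were at Pcdhga10 (27.7), Pcdhgc3 (26.6) and Pcdhgb6 (19.2) in Pcdhγ and at Pcdhb14 (11.5), Pcdhb21 (8.76) and Pcdhb16 (7.90) in Pcdhβ. In Pcdhα only Pcdha11 (4.01), Pcdha12 (3.34) and the C-type Pcdhac1 (2.72) had one, all below 5. The order of members differed between the Ctcf and Rad21 lists. Pcdhga6 had the second strongest Ctcf summit of all starts, but its Rad21 summit (8.12) ranked below those of Pcdhb14 and Pcdhb21.

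Within Pcdhβ, Rad21 was listed mostly at the last members. Of the first 11 Pcdhβ members, from Pcdhb1 to Pcdhb11, 9 had Ctcf and 1 had Rad21, which was Pcdhb8 (3.19). Of the last 11, from Pcdhb12 to Pcdhb22, all 11 had Ctcf and 9 had Rad21, with a median strength of 6.31. In Pcdhγ the first 11 members had 10 with Ctcf and 4 with Rad21, and the last 11 had 7 and 6. The first 7 Pcdhα members had 5 with Ctcf and 0 with Rad21, and the last 7 had 4 and 3. This split into equal parts was made after the values had been seen and is a description. Recurring 50-base words also differed along Pcdhβ, with 2.20% to 12.7% at Pcdhb4 to Pcdhb12 and 0 at Pcdhb13 to Pcdhb22. They were 0 at Pcdhb1 to Pcdhb3 as well, where Rad21 was not listed. The part of recurring sequence in these counts was not tested.

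Apart from the starts, several Ctcf summits lay inside the members' exons. Of the 21 Ctcf summits within the clusters that were over 1 kb from every start, 17 fell in an annotated exon of a member between 1110 and 2854 bp past the nearest upstream start, with a median of 2207 bp. In Pcdhβ this held for 11 of 11, with strengths of 1.67 to 4.48, at Pcdhb3, Pcdhb10, Pcdhb12, Pcdhb13, Pcdhb14, Pcdhb17, Pcdhb20 and Pcdhb21, of which Pcdhb3, Pcdhb13 and Pcdhb14 had 2 each. In Pcdhα it held at Pcdha4, Pcdha7 and Pcdha10, with strengths up to 3.35. In Pcdhγ the exon of Pcdhgc3 held the strongest, 13.3 at 37808910, which is 2546 bp past its start. Farther from any start, a summit of 10.98 at 37841362 lay in the last exon that the Pcdhγ members share.

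The strongest Ctcf and Rad21 summits of the span were outside the clusters, in introns of Diaph1, a formin gene that lies downstream of Pcdhγ on the minus strand. Ctcf at 37852296 had a strength of 94.2, rank 391 of all 91355 Ctcf summits, and Rad21 at 37852357 had 66.8, rank 191 of 101647. These were 10.4 and 10.5 kb past the end of Pcdhγ. Further Ctcf summits followed at 37877594 (53.9), 37883641 (89.6) and 37887218 (25.7), and further Rad21 summits at 37877506 (22.3), 37880375 (25.4) and 37883705 (10.99). Between Pcdhα and Pcdhβ, Ctcf at 37218405 (17.4) and Rad21 at 37218093 (7.90) stood 30.7 and 30.4 kb past the end of Pcdhα. Before Pcdhγ, Ctcf at 37655578 (26.9) lay 6.21 kb upstream of the Pcdhga1 start in an exon of the lincRNA gene 3222401L13Rik, with Rad21 of 3.34 at 37656495. The 50 kb upstream of Pcdhα held 0 Ctcf and 0 Rad21 summits. A list of summits gives no contacts between sites.

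Of the 53 Rad21 summits in the span, 35 (66.0%, 51.7 to 78.5) had a Ctcf summit within 1 kb, against 52.0% of all Rad21 summits. Of the 87 Ctcf summits, 36 (41.4%, 30.9 to 52.4) had Rad21, against 55.7% over the genome. In Pcdhβ 11 of 12 Rad21 summits had Ctcf, and in Pcdhγ 12 of 21.

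The DNA around the Ctcf summits was searched on both strands, within 100 bp of each summit, for the Ctcf core motif, a pattern of 12 positions of which 8 are fixed. A match was found at 3 of the 87 summits of the span, 1 in the direction of the genes and 2 against it, against 8.68% of all Ctcf summits and 17.7% of those with a strength of at least 5. At the 28 member starts with a strength of at least 5 there were 0. With a looser core that leaves 1 more position free, chosen after the first counts were seen and including all matches of the first, 8 of 87 matched against 26.2% of all Ctcf summits. Of these 8, the 2 in the direction of the genes were at member starts, and the 6 against it lay over 1 kb from any start, 3 in Pcdhβ and 3 in the downstream flank. In the 300 bases around the start (250 before and 50 after), 4 of 58 members matched the looser core, each in the direction of the gene, against 9.41% of protein-coding genes, and 1 of 58 matched the first core, against 3.96%. At the 28 member starts with a strength of at least 5 the looser core matched at 1, against 44.1% of all Ctcf summits of that strength. A summit without a match says only that these letters were not found in the window.

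**Figure D3:**
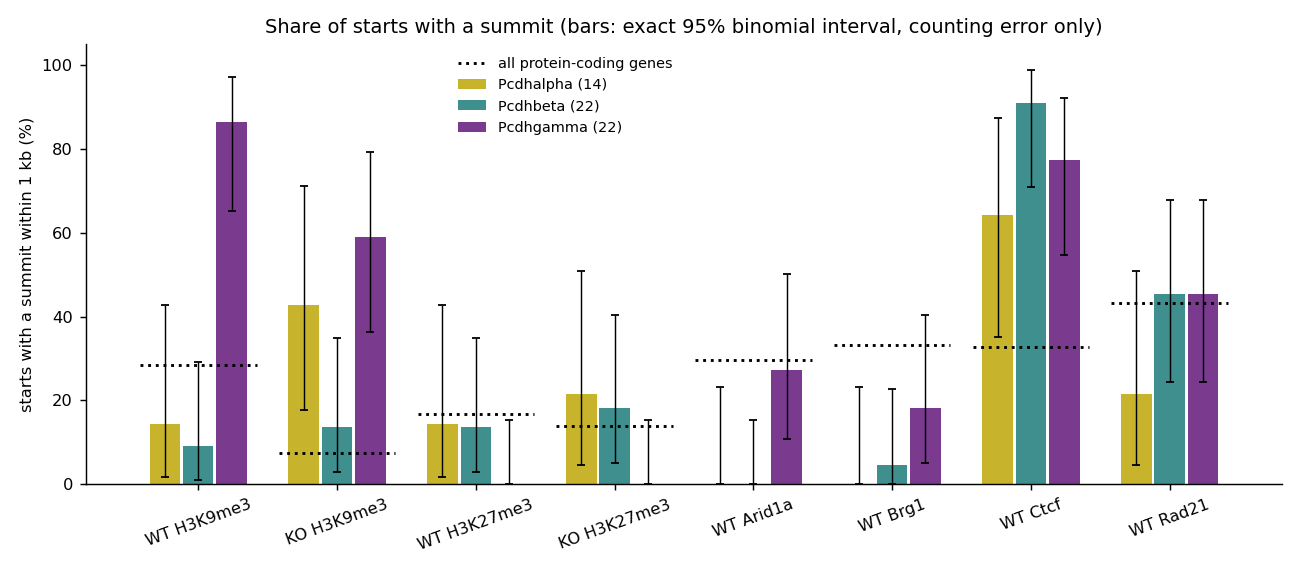
Share of member starts with a summit within 1 kb, in percent, for each list and cluster, with exact 95% binomial intervals that cover counting error only. Dotted lines give the share over all protein-coding genes. Ctcf stands above its dotted line in all 3 clusters, and Brg1 and Arid1a lie below theirs in each. WT H3K9me3 stands above its line in Pcdhγ alone, and KO H3K9me3 in all 3 clusters. In Pcdhβ the KO interval (2.91 to 34.9) includes the line at 7.57%.

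The SWI/SNF subunits were sparse. Brg1, the ATPase of the complex, had a summit at 5 of 58 starts (8.62%, 2.86 to 18.98) against 33.2% of protein-coding genes, and Arid1a, its DNA-binding subunit, at 6 of 58 (10.3%, 3.89 to 21.2) against 29.6%. Either subunit was present at 9 members (42.1% of protein-coding genes), 8 of them in Pcdhγ, and both at 2 (20.7%), the C-type Pcdhgc3 and Pcdhgc4. Arid1a was listed at Pcdhgb1 (3.33), Pcdhga5 (2.70), Pcdhga2 (2.13), Pcdhgc3 (2.13), Pcdhgc4 (2.04) and Pcdhga10 (1.79). Brg1 was listed at Pcdhgc5 (3.80), Pcdhga12 (3.10), Pcdhgc4 (2.67), Pcdhgc3 (2.56) and Pcdhb17 (2.56). All 3 C-type Pcdhγ promoters thus had Brg1, against 1 of the other 19 Pcdhγ members, Pcdhga12. Every one of these summits was weak. A strength of 5 was reached by 0 of the 32 Brg1 and 0 of the 25 Arid1a summits of the span, while 5.19% and 3.74% of protein-coding genes had such a summit at the start.

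Over the whole span the density of both subunits was near that of the genome, with 31.6 Brg1 and 24.7 Arid1a summits per Mb against 29.9 and 25.8 over the genome, and 1018 and 1087 of the 2534 windows held more. It was below that of chromosome 18, at 50.4 and 46.4 per Mb. They were gathered at its downstream end. Pcdhγ and the downstream flank held 24 of the 32 Brg1 summits and 18 of the 25 Arid1a summits, and Pcdhα held 0 and 2. The strongest Arid1a summit (4.70 at 37734771) was in the exon of Pcdhgb5, and the strongest Brg1 summits (3.80 at 37819101 and 37820552) were on either side of the Pcdhgc5 start. Of the Brg1 summits, 16 of 32 (50%, 31.9 to 68.1) had a Rad21 summit within 1 kb against 27.4% over the genome, and 6 of 32 had Arid1a (18.8%) against 27.5%. Of the Arid1a summits, 11 of 25 (44%, 24.4 to 65.1) had Rad21 against 25.0%.

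H3K9me3, the mark of heterochromatin, was listed over Pcdhγ in both genotypes, and the lists of WT and KO cells differed in number over the other clusters. In WT cells it was listed at 23 of 58 starts (39.7%) against 28.5% of protein-coding genes, and 19 of these were in Pcdhγ, where the share was 86.4% (65.1 to 97.1). In KO cells it was listed at 22 of 58 starts (37.9%, 25.5 to 51.6) against 7.57% of protein-coding genes, 6 in Pcdhα, 3 in Pcdhβ and 13 in Pcdhγ. The WT list had more summits at gene starts in general, so the close counts at members stand against unequal backgrounds. At a strength of at least 5 there were 0 members in WT (0.925% of protein-coding genes) and 4 in KO cells (0.232%), all in Pcdhγ. Members with such a summit in WT alone thus numbered 0 (0.816%), in KO alone 4 (0.123%) and in both 0 (0.109%).

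By member, 12 had H3K9me3 in both genotypes (3.09% of protein-coding genes), all of them in Pcdhγ. They were Pcdhga2, Pcdhga3, Pcdhga4, Pcdhgb2, Pcdhga5, Pcdhgb4, Pcdhgb5, Pcdhga9, Pcdhgb7, Pcdhga11, Pcdhgb8 and the C-type Pcdhgc5. The mark was listed in KO alone at 10 members (4.49%), Pcdha1, Pcdha3, Pcdha4, Pcdha5, Pcdha8 and Pcdha10, then Pcdhb1, Pcdhb4 and Pcdhb5, and Pcdhga12, and in WT alone at 11 (25.5%), 7 of them in Pcdhγ, which makes 33 members in either genotype (33.0%). All KO summits at Pcdhα starts were weak, between 1.62 and 2.47, and those at Pcdhβ starts reached 3.11. The strongest at starts were Pcdhga11 (6.79), Pcdhgc5 (6.26), Pcdhgb7 (5.30) and Pcdhgb4 (5.12) in KO cells and Pcdhgb4 (4.79), Pcdhgb7 (4.72) and Pcdhga4 (4.60) in WT cells. Pcdhgb4 and Pcdhgb7 were among the strongest starts in both lists. Pcdhga11 (1.82) and Pcdhgc5 (2.07) were listed in WT too, below the WT median of 3.31 at Pcdhγ starts. Strengths of the WT and KO lists cannot be set against each other.

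**Figure D4:**
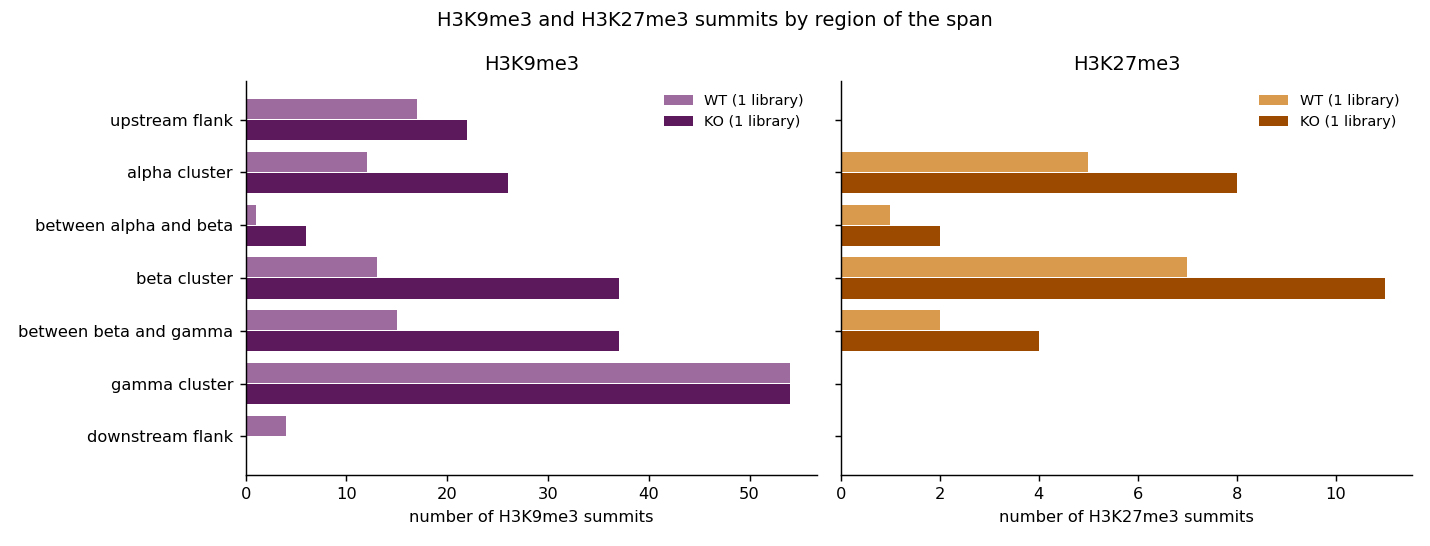
Number of H3K9me3 (left) and H3K27me3 (right) summits in each region of the span in WT and KO cells, 1 library each, with bars from 0. KO bars are longer for H3K9me3 in Pcdhα (26 against 12), Pcdhβ (37 against 13) and the gap before Pcdhγ (37 against 15), and equal in Pcdhγ (54 each). H3K27me3 is listed in neither genotype within Pcdhγ.

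Counted over the span, H3K9me3 had 116 summits in WT and 182 in KO cells, 115 and 180 per Mb against 52.8 and 49.5 over the genome and 59.7 and 63.7 over chromosome 18. Of the 2534 windows, 306 held more WT summits and 8 held more KO summits. By region the mark was densest in the 50 kb upstream of Pcdhα, with 340 WT and 440 KO summits per Mb, followed by Pcdhγ with 299.9 in each genotype. The KO to WT ratio was 1.57 (1.24 to 1.998, counting error only), whereas it was 0.938 over the genome and 1.07 over the chromosome. The ratio was 2.17 (1.06 to 4.71) in Pcdhα, 2.85 (1.48 to 5.84) in Pcdhβ, 2.47 (1.32 to 4.84) between Pcdhβ and Pcdhγ and 1 (0.673 to 1.49) in Pcdhγ. A span ratio of this size was not rare, since 603 of 2276 windows with at least 10 WT summits (26.5%) had a higher one, and the median over windows was 1.09. At the member starts alone the ratio was 1.04, with 26 KO and 25 WT summits. With summits within 3 kb merged, the span ratio was 1.35, with 77 KO and 57 WT summits. Among summits of at least 5, the span had 7 in WT and 22 in KO cells. With 1 library per genotype, antibody efficiency, depth and genotype cannot be told apart.

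The positions were partly shared. Within 1 kb, 79 of 116 WT summits of the span (68.1%, 58.8 to 76.4) had a KO summit and 85 of 182 KO summits (46.7%, 39.3 to 54.2) had a WT summit, against 31.1% and 33.3% over the genome. In Pcdhγ 37 of 54 in each direction had a partner. In Pcdhβ 10 of 13 WT summits had one, but only 11 of 37 KO summits did.

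In Pcdhγ the mark was denser in annotated exons of members than elsewhere. Variable exons and the exons that members share were counted together. Exons of members made up 39.4% of the cluster and held 41 of its 54 WT summits (75.9%) and 33 of its 54 KO summits (61.1%). The density was 0.578 summits per kb of exon and 0.119 per kb elsewhere in WT cells, and 0.466 and 0.192 in KO cells. In Pcdhβ, exons made up 35.5% and held 2 of 13 WT and 11 of 37 KO summits. In Pcdhα they made up 15.8% and held 4 of 12 WT and 10 of 26 KO summits. The strongest WT summits were in the exons of Pcdhgb6 (8.21 at 37744435), Pcdhga11 (7.30 at 37757542) and Pcdhgb5 (6.43 at 37732835). The strongest KO summit, 11.1 at 37365410, was in Pcdhβ in the long gap between Pcdhb8 and Pcdhb9, 10289 bp past the Pcdhb8 start, with WT summits nearby at 37367424 (4.79) and 37370569 (6.10). Pcdhγ also differed in composition, with 45.1% GC and 20.5% soft-masked repeat bases, against 40.5% GC and 38.0% in Pcdhβ and 40.4% and 40.1% in Pcdhα. The part of composition in these counts was not tested.

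Ctcf and WT H3K9me3 were both listed at 18 of the 58 starts, against 14.4% of protein-coding genes, with 15 in Pcdhγ, 1 in Pcdhα and 2 in Pcdhβ. The 15 include Pcdhgb6, Pcdhga4, Pcdhga10 and Pcdhgc3, which had strong Ctcf. In Pcdhγ each was common on its own, and 4 of the 5 members without Ctcf also had WT H3K9me3. Ctcf of WT cells and H3K9me3 of KO cells were both listed at 16 starts, against 2.58%, with 10 in Pcdhγ, 4 in Pcdhα and 2 in Pcdhβ. Of the 24 Ctcf summits in Pcdhγ, 21 (87.5%) had a WT H3K9me3 summit within 1 kb, against 21.4% of all Ctcf summits, and 13 (54.2%) had a KO H3K9me3 summit, against 8.87%. In Pcdhβ it was 2 of 34 for either genotype, and in Pcdhα 3 of 15 for WT and 5 of 15 for KO H3K9me3. Pcdhga6, with strong Ctcf and Rad21, had H3K9me3 in neither genotype.

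H3K27me3, the Polycomb mark, was confined to Pcdhα, Pcdhβ and the gaps among the regions of the span. It was listed at 5 of 58 starts in WT cells (8.62%) against 16.8% of protein-coding genes and at 7 of 58 in KO cells (12.1%) against 14.0%. No Pcdhγ start and no position within Pcdhγ had a summit in either genotype. The C-type Pcdhac2 had the strongest in both, 11.2 in WT at 152 bp past the start and 11.1 in KO cells at 999 bp, and in KO cells 2 more followed at 37146354 (9.74) and 37147380 (4.77). The C-type Pcdhac1 had 2.84 in WT and 1.86 in KO cells, and Pcdhb16 had 1.32 and 1.63. These 3 members were marked in both genotypes (10.5% of protein-coding genes). WT cells alone had the mark at Pcdhb1 and Pcdhb15 (6.25% of protein-coding genes), and KO cells alone at Pcdha10, Pcdhb5, Pcdhb6 and Pcdhb11 (3.45%), with strengths of 1.92 to 3.38. Only Pcdhac2 reached 5, in both genotypes (4.12% of protein-coding genes), so the members past 5 numbered 1 in WT (7.14%), 1 in KO cells (6.03%), 0 in WT alone (3.03%) and 0 in KO alone (1.91%).

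In the span 15 WT and 25 KO H3K27me3 summits were listed, a KO to WT ratio of 1.67 (0.845 to 3.40) against 0.785 over the genome. Both lists were below their genome density, with 14.8 WT and 24.7 KO summits per Mb against 40.2 and 31.6. Of the 2534 windows, 1301 held more WT summits and 906 held more KO summits. The ratio was 3.13 (25 KO and 8 WT summits) when the WT list was cut to its strongest 86003 summits, close to the 86050 of the KO list, and 1.15 (15 and 13) when summits within 3 kb were merged. Of 1459 windows with at least 10 WT summits, 18 (1.23%) had a higher ratio, but the counts are small and the interval includes 1. Of the 25 KO summits, 8 (32%, 14.9 to 53.5) had a WT summit within 1 kb against 68.3% over the genome, and of the 15 WT summits, 8 had a KO summit (53.3% against 54.4%). H3K9me3 and H3K27me3 were listed at the same start at 2 members in KO cells, Pcdha10 and Pcdhb5 (1.15% of protein-coding genes), and at 0 in WT cells (3.98%).

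**Figure D5:**
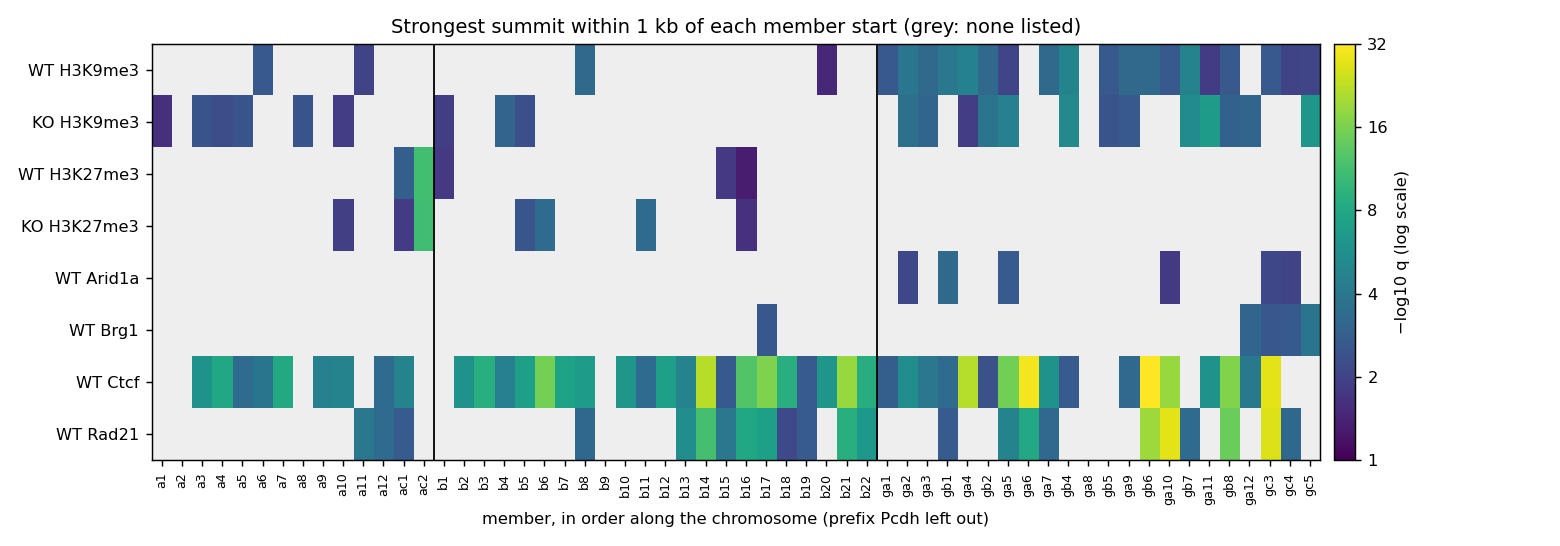
Strength (−log10 q, log color scale) of the strongest summit within 1 kb of each of the 58 starts in the 8 lists, with members in order along the chromosome and vertical lines between clusters. Grey cells had no summit. Pcdhγ carries H3K9me3 beside Ctcf and holds all Arid1a summits, and H3K27me3 is strongest at Pcdhac2.

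At 3 members, Pcdha2, Pcdhb9 and Pcdhga8, no list had a summit at the start, while Pcdhga5 and Pcdhgc3 had summits in 5 of the 8 lists. The C-type members differed from each other. Pcdhac2 had H3K27me3 without Ctcf or Rad21, and Pcdhac1 had weak H3K27me3 with weak Ctcf and Rad21. Pcdhgc3 had strong Ctcf and Rad21 with weak Brg1 and Arid1a. Pcdhgc4 and Pcdhgc5 had weak Brg1 without Ctcf, and Pcdhgc4 also had Rad21 (3.19) and Arid1a (2.04). WT H3K9me3 was listed at Pcdhgc3 (2.64), Pcdhgc4 (2.03) and Pcdhgc5 (2.07), and KO H3K9me3 at Pcdhgc5 (6.26). Between Pcdhβ and Pcdhγ lies Slc25a2, a mitochondrial carrier gene, with H3K9me3 at its start in WT (4.79) and in KO cells (2.60) beside Arid1a (3.99), and Taf7, a TFIID subunit gene, had Brg1 and KO H3K9me3 (1.36).

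Related genes elsewhere were counted in the same way. Over all protein-coding genes the shares were 32.8% for Ctcf, 43.2% for Rad21, 33.2% for Brg1 and 29.6% for Arid1a. They were 28.5% and 7.57% for WT and KO H3K9me3, and 16.8% and 14.0% for WT and KO H3K27me3. Counts in lists of 10 or 12 genes are small, and several lie near these shares. Among 12 non-clustered protocadherins, which have their own separate loci, Ctcf was listed at 3 starts, Rad21 at 3, Brg1 at 3, Arid1a at 1, WT H3K9me3 at 3, KO H3K9me3 at 0, and H3K27me3 at 6 in WT and 3 in KO cells. The strongest H3K27me3 in WT was at Pcdh1 (19.6), followed by Pcdh15 (17.0). Among 10 classical cadherins, Ctcf was at 5, Rad21 at 4, Brg1 at 3, Arid1a at 2, WT H3K9me3 at 3, KO H3K9me3 at 0, and H3K27me3 at 5 in WT and 4 in KO cells. Of 39 Hox cluster genes, 16 had Ctcf, 27 Rad21, 21 Brg1, 11 Arid1a, 16 WT and 7 KO H3K9me3, and 7 WT and 8 KO H3K27me3. Of 1135 olfactory receptor genes, another large clustered family, 1.498% had Ctcf and 3.26% had KO H3K9me3, and the highest of its shares was 5.99% for WT H3K27me3.

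Of 16 genes for factors known to act on these clusters or on chromatin, Ctcf was at 12 starts, Rad21 at 14, Brg1 and Arid1a at 10 each, H3K9me3 at 8 in WT and 4 in KO cells, and H3K27me3 at 1 in each genotype. The shares over all protein-coding genes given for the related genes apply here too. Setdb1, an H3K9 methyltransferase known to act on the protocadherins, had H3K9me3 in WT (6.10) and in KO cells (3.32) at its own start. The lists hold no expression, so marker genes of the labelled cell type can be described only by summits at their starts. The marker sets hold 3 to 8 genes each, so their counts are small. The 8 hepatocyte markers found had none, apart from KO H3K27me3 at Hnf4a (5.52), the hepatocyte nuclear factor, and Brg1 at Ttr (2.56). Among 6 neuron markers, WT H3K27me3 was at 4 and KO H3K27me3 at 1, WT H3K9me3 at 2 and KO H3K9me3 at 1, Ctcf at 1 and Rad21 at 3. WT H3K27me3 was at 0 of 4 biliary, 2 of 3 endothelial, 0 of 3 immune and 2 of 5 stellate or fibroblast markers. In the same order, KO H3K27me3 was at 2, 1, 0 and 2 of them, and Ctcf at 0, 1, 0 and 2.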

How the data were processed

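The 10 samples were grouped by genotype and antibody from their titles, and the 2 inputs entered only through peak calling. Per the study's methods, the authors used Bowtie2 for alignment to mm10, SAMtools to filter on read quality and Picard to drop PCR duplicates, and MACS2 at its defaults, with input as background, for the peaks. Versions were not given in the sources used here. The deposited lists hold 1-bp summits with a −log10 q-value, read from the values, since none lay below the −log10 of 0.05. Narrow calling splits broad marks into strings of summits, and library depth changes the number called.

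Summits were placed with Python 3.11.15, pandas 2.3.3, NumPy 2.4.6 and SciPy 1.17.1 within 1 kb of the outermost GENCODE vM21 start, and counting was tested on simulated lists. Positions are 1-based, and 0 summits lay beyond a chromosome end. GENCODE gives the symbol Pcdha11 to 2 genes, and the one starting at 37005203 is called Pcdha10 after RefSeq. Windows covered chromosomes 1 to 19 and X. Intervals are exact binomial and cover counting error only. Members named by a rule were the first and last, the C-type, those strongest in each list and those with SWI/SNF. The members without Ctcf, and others listed by mark, position or weakest summit, were named beyond that rule. The members and lists were chosen with earlier results of these data known.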

Additional observations from a re-analysis of the deposited data

How the results depend on the processing

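No replicate existed, so no library could be left out. No paired analysis was possible because each group held 1 library and no result came from a test. Of 172 alternatives to 33 results, 106 stayed within the limit set for a count or a share and 66 moved. A turn of direction was looked for only in the KO to WT ratios of summits in the span, and 0 were found. The order of other counts could change. Members with H3K9me3 in WT alone and in KO alone numbered 11 and 10, but 4 and 16 with 2000 bp. Counting any annotated transcript start, protein-coding members only or the span without its flanks moved none of the results it was run on. The cause of the moves was not tested, except that stricter settings keep fewer summits by construction.

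At a strength of at least 5, members with a summit were 0 for WT H3K9me3, 4 for KO H3K9me3, 1 for H3K27me3 in each genotype, 0 for Arid1a and Brg1, 28 for Ctcf, 11 for Rad21 and 10 for Ctcf with Rad21. H3K9me3 was then in WT alone at 0 members, in KO alone at 4 and in both at 0, and H3K27me3 at 0, 0 and 1. The span then held 7 WT and 22 KO H3K9me3 summits (ratio 3.14), 1 WT and 3 KO H3K27me3, 0 Arid1a, 0 Brg1, 37 Ctcf and 16 Rad21. Shares became 22.7% for KO H3K9me3 with WT, 100% for the 1 WT H3K27me3 summit with KO and 87.5% for Rad21 with Ctcf, and 0 motif matches ran in the direction of the genes.

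With 500 bp in place of 1 kb, members numbered 14 for KO H3K9me3, 3 for each H3K27me3 list and 5 with H3K9me3 in both, and 1 each with H3K27me3 in WT alone and in KO alone. The share of WT H3K9me3 summits with KO became 39.7% and of KO with WT 25.8%. With 2000 bp, members numbered 38 for KO H3K9me3 and 11 for KO H3K27me3. H3K9me3 was in WT alone at 4, in KO alone at 16 and in both at 22, and H3K27me3 in WT alone at 1 and in KO alone at 7. The H3K9me3 shares became 83.6% and 62.6%, and Rad21 with Ctcf 79.2%.

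Cutting the lists to the 70408 summits of the shortest, with ties at the limit left out, kept 52606 to 70408, so the numbers were not equal (60673 WT and 69935 KO H3K27me3). Members then numbered 11 for WT and 12 for KO H3K9me3 and 2 for WT and 4 for KO H3K27me3, and the span held 52 WT and 103 KO H3K9me3 and 6 WT H3K27me3 summits. Cut to the shorter list of each mark, which kept 86003 WT and 86050 KO H3K27me3 summits, H3K27me3 was in WT alone at 0 members, and its KO to WT ratio was 3.13, inside the interval of the reported ratio. Keeping the ties, added after seeing the data, gave 3.13 as well and 1.63 for H3K9me3. Merged within 3 kb, it held 57 WT and 77 KO H3K9me3, 15 KO H3K27me3, 18 Brg1, 51 Ctcf and 33 Rad21 summits. At member starts only, the H3K9me3 ratio was 1.04. Motif matches within 50 bp numbered 0 in the direction of the genes and 1 against it. Another form of the motif, of the same length but with other positions fixed, gave 4 against it. The looser core, chosen after seeing the data, gave 2 and 6.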
